A study of Mus musculus with 4 samples.

Results

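Gdf3 and 9 further genes of the Nodal pathway were followed in mouse embryonic stem cells (ESCs) labelled Naa10-KO and in wild-type (WT) ESCs. They are 10 of the 14099 named rows in each deposited expression table, found as rows whose symbol is, or holds between commas, Gdf3, Nodal, Lefty1, Lefty2, Tdgf1, Acvr1b, Acvr2b, Smad2, Smad3 or Smad7. Each gene had a row of its own, shared with no other symbol. Gdf3 was selected on its higher level in the Naa10-KO libraries. The other 9 genes belong to the same signalling pathway and were proposed with the Naa10-KO and WT values known. The differences of these 10 genes between the genotypes are therefore given as a description, with no p-value.

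There were 2 libraries labelled Naa10-KO and 2 labelled WT, all from first-generation hybrids of Naa10-/X C57BL/6 dams and JF1 sires, a strain remote from C57BL/6. The WT cells were littermates of the Naa10-KO cells. Both genotypes grew in serum-free N2B27 medium with LIF, the Mek inhibitor PD325901 and the Gsk3 inhibitor Chir99021, for 5 passages on irradiated fibroblasts and 5 without them. Poly-dT-selected RNA was sequenced, and levels are RPKM, read numbers scaled to transcript length and library depth, so that genes can be compared per length. The labels call the libraries biological replicates. The number of lines or clones behind them and the removed part of Naa10 are not stated there.

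Nodal is a secreted ligand of the TGF-beta family that patterns the early embryo. It binds a receptor complex of a type II receptor such as Acvr2b and the type I receptor Acvr1b, with Tdgf1 (Cripto) as the co-receptor that lets Nodal engage them. The activated type I receptor phosphorylates Smad2 and Smad3, which enter the nucleus with Smad4 and use DNA-binding partners such as Foxh1. Lefty1 and Lefty2 are secreted antagonists that the pathway itself induces, and Smad7 acts on the receptors from inside the cell, so the pathway carries its own brakes. Gdf3 is a related ligand of pluripotent cells that can signal through the same receptors with Tdgf1 and is also known to restrain BMP signalling.

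The joined row of Naa10 and Renbp had 28.9 and 34.4 RPKM in the Naa10-KO libraries, against 105 and 106 RPKM in the WT libraries, or 30.1% of WT, in the direction of the labels (log2 difference -1.71, SE 0.11, limma adjusted p = 0.0342). With small RNA rows and rows at 0 removed, 0 rows of the table passed, so this call is lost there. Because the row joins both genes, and the removed part of Naa10 is unknown, the remaining level cannot be given to either gene. Depth, as estimated from the values, came to 74000000 and 85300000 fragments in the Naa10-KO libraries and 50900000 and 51800000 in the WT libraries. Over the 11912 rows tested, the median absolute difference on log2(RPKM + 1) was 0.25 between the Naa10-KO libraries and 0.05 between the WT libraries, so the Naa10-KO pair was the less alike. The labelled cell type showed in its markers: all 10 ESC markers were at 30.7 RPKM or more in every library. Their summed level was 2038 RPKM in Naa10-KO replicate 1 and 2924 RPKM in replicate 2, against 2268 and 2258 RPKM in WT. Of the 10, 2 were above both WT libraries in replicate 1 and 8 in replicate 2, beside 38.3% and 41.8% of all rows tested. The 2 in replicate 1 were Pou5f1 and Dppa3, and all the others were below both WT libraries there. Pou5f1 alone had 924 and 971 RPKM in Naa10-KO, against 808 and 815 RPKM in WT. The summed level of 4 markers of primed pluripotency was 108 and 83.5 RPKM in Naa10-KO, against 74.7 and 74.8 RPKM in WT. Most of it was Dnmt3b, at 76.4 and 60.0 RPKM in Naa10-KO, against 52.3 and 53.9 RPKM in WT. Fgf5 was also above both WT libraries in both Naa10-KO libraries. Otx2 lay between the WT libraries in replicate 1, and Pou3f1 was below both in replicate 2. The summed level of 12 fibroblast markers was 802 RPKM in Naa10-KO replicate 1 and 331 RPKM in replicate 2, against 332 and 341 RPKM in WT, and none of the 12 was at 0 in any library. Of these markers, 10 were above both WT libraries in replicate 1 and 10 were below both in replicate 2, beside 38.3% and 48.3% of all rows tested. Fn1 alone had 254 and 231 RPKM in Naa10-KO, against 188 and 189 RPKM in WT. The sum in replicate 2 therefore hides the lower level of most of the others. The summed level of 5 measured trophoblast markers was 51.3 and 52.9 RPKM in Naa10-KO against 30.3 and 27.1 RPKM in WT, and that of 8 primitive endoderm markers was 35.4 and 34.4 RPKM in Naa10-KO against 34.8 and 30.6 RPKM in WT. In bulk RNA, a change in the number of cells that make a transcript and a change in its amount per cell cannot be told apart.

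Gdf3 was higher in both Naa10-KO libraries, and Nodal was lower in both. Gdf3 had 63.5 and 59.6 RPKM in the Naa10-KO libraries, against 21.7 and 23.6 RPKM in the WT libraries. Its mean was 61.6 ± 2.75 RPKM in Naa10-KO and 22.7 ± 1.35 RPKM in WT (SD, n = 2 each), or 2.71-fold, a log2 difference of 1.40 (SE 0.09). The Naa10-KO libraries lay close together at nearly the same distance from WT, by 1.45 and 1.36 on the log2 scale. Nodal had 45.8 and 57.1 RPKM in the Naa10-KO libraries, against 70.7 and 68.1 RPKM in the WT libraries. Its Naa10-KO mean of 51.4 ± 8.04 RPKM was 74.2% of the WT mean of 69.4 ± 1.84 RPKM (SD, n = 2 each; log2 difference -0.43, SE 0.13). The groups did not overlap for either ligand, but replicate 1 was further below WT for Nodal than replicate 2 was.

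The order of Gdf3 and Nodal by level differed between the genotypes, though they were close together in Naa10-KO replicate 2. The ratio of Gdf3 to Nodal, in RPKM, was 1.39 and 1.04 in the Naa10-KO libraries, against 0.308 and 0.347 in the WT libraries. Gdf3 transcripts were thus at or above the level of Nodal in both Naa10-KO libraries, and below it in both WT libraries. The Gdf3 levels rested on an estimated 9051 and 9793 fragments in Naa10-KO and 2131 and 2359 in WT, a counting error of at most 2.17%. The part of depth, estimated as higher in both Naa10-KO libraries, was not tested. Of the 50-base windows of the Gdf3 transcript, 2.02% also occurred in transcripts of other genes, and none of those of Nodal did. The trophoblast marker sum was also above WT in both Naa10-KO libraries. It was 51.3 and 52.9 RPKM, most of it Krt18 and Tfap2c, against 30.3 and 27.1 RPKM in WT. The primed pluripotency marker sum was above WT in both as well (108 and 83.5 RPKM, against 74.7 and 74.8 RPKM in WT). The part of either list in the Gdf3 values was not tested.

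**Figure D1:**
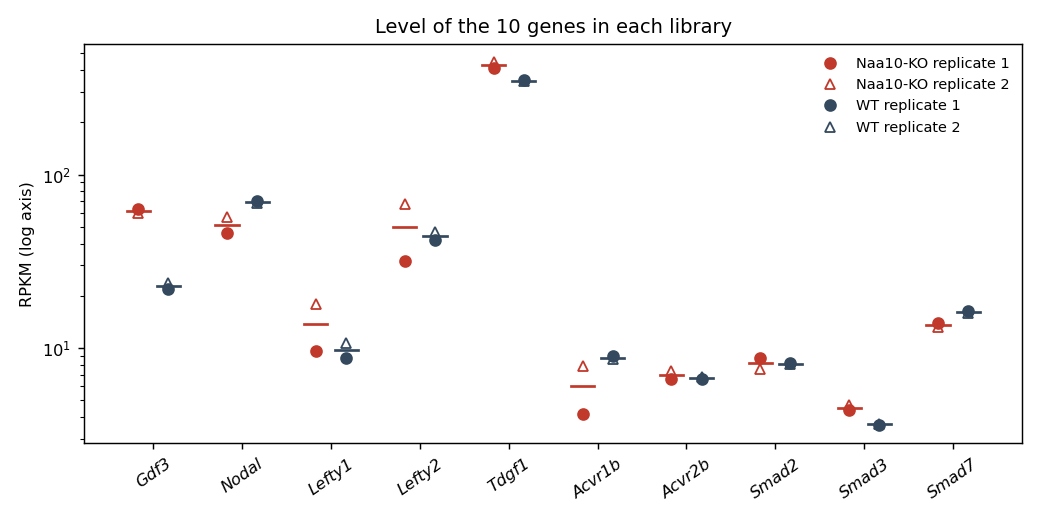
Level of each gene in RPKM, on a log axis, in the Naa10-KO libraries (red, left of each pair) and the WT libraries (dark, right of each pair); horizontal lines are group means. Gdf3 lies near 60 RPKM in Naa10-KO and between 21.7 and 23.6 RPKM in WT, while the Naa10-KO points of Lefty1, Lefty2 and Acvr1b are far apart.

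Lefty1 and Lefty2, the secreted antagonists, differed more between the Naa10-KO libraries than between the genotypes. Because these genes, both on chromosome 1, are close copies, their likeness bears on how far their levels can be separated. The coding sequences in GENCODE M21 (GRCm38) are both 1107 bases long and 91.9% identical, with no gaps. The longest stretch that they share without a difference is 140 bases, and a short read from it fits both genes. Of all 50-base windows of the Lefty1 transcript, 17.9% also occurred in the transcripts of another gene, all of them in Lefty2; for the Lefty2 transcript the share was 11.6%, most of them in Lefty1. The levels of the pair are therefore uncertain where reads were divided between them, and the sum is given as well.

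Lefty1 had 9.63 and 17.96 RPKM in the Naa10-KO libraries, against 8.71 and 10.7 RPKM in the WT libraries. Replicate 1 lay between the WT libraries and replicate 2 was above both, so the groups overlapped (log2 difference 0.42, SE 0.32). Lefty2 had 31.5 and 67.6 RPKM in the Naa10-KO libraries, against 41.8 and 46.7 RPKM in the WT libraries. Its Naa10-KO libraries were on opposite sides of WT and 2.14-fold apart, while the WT libraries were 1.12-fold apart. The mean difference of 0.07 (log2, SE 0.39) hides a difference from WT of -0.47 in replicate 1 and 0.60 in replicate 2. The sum of both antagonists was 41.2 and 85.6 RPKM in Naa10-KO, against 50.5 and 57.3 RPKM in WT, and relative to Nodal it was 0.900 and 1.498 in Naa10-KO, against 0.714 and 0.842 in WT. Relative to Nodal, the antagonist level was thus above WT in both Naa10-KO libraries, by little in replicate 1. In replicate 1 the sum itself was below both WT libraries, as was Nodal. Gdf3 is not counted in this ratio. The smallest value, Lefty1 in WT replicate 1, rested on an estimated 630 fragments (counting error 3.98%). The ESC marker sum was likewise lower in Naa10-KO replicate 1 (2038 RPKM) than in replicate 2 (2924 RPKM), and its part in the Lefty1 and Lefty2 values was not tested.

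Tdgf1, the co-receptor, was the most abundant of the 10 transcripts and was higher in both Naa10-KO libraries. It had 409 and 444 RPKM in the Naa10-KO libraries, against 349 and 346 RPKM in the WT libraries. The Naa10-KO mean of 427 ± 25.1 RPKM was 1.23-fold the WT mean of 347 ± 2.51 RPKM (SD, n = 2 each; log2 difference 0.29, SE 0.07), and the groups did not overlap. The pseudogene Tdgf1-ps1 shares 12.5% of the 50-base windows of the Tdgf1 transcript, so part of the reads may have been assigned either way. The ratio of Tdgf1 to Nodal was 8.94 and 7.78 in Naa10-KO, against 4.94 and 5.08 in WT.

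The promoter of Tdgf1 is printed because the gene is the most abundant of the 10 and its promoter is in the RefSeq promoter table. It runs from 250 bases before to 50 bases after the annotated start, at chr9:110946109-110946408 on the minus strand (GRCm38.p6), and is printed 5′ to 3′. Capitals mark the only CAGAC, the SMAD box, found on either strand.
Tdgf1: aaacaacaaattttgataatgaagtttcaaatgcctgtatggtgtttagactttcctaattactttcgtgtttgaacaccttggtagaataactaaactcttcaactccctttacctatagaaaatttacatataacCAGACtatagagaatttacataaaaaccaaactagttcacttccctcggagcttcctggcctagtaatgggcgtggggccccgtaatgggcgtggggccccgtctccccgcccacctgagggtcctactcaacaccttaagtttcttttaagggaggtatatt

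Promoters of 5 of the 10 genes were matched by symbol: Nodal, Tdgf1, Acvr1b, Acvr2b and Smad3. The SMAD box CAGAC was present in 2 of these, Tdgf1 and Acvr2b, and in 49.6% of 32851 promoters of the same length. The SMAD palindrome GTCTAGAC and the FOXH1 motif AATNCACA were in 0 of the 5, and in 0.213% and 3.60% of all promoters. The palindrome does not contain the SMAD box on either strand, and a match or its absence describes these letters in this window only.

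Of the receptors, Acvr1b was lower in both Naa10-KO libraries, by far more in one than in the other, and Acvr2b stood at nearly its WT level. Acvr1b, the type I receptor also called Alk4, had 4.14 and 7.90 RPKM in the Naa10-KO libraries, against 9.03 and 8.58 RPKM in the WT libraries. Replicate 1 was 0.93 below WT on the log2 scale and replicate 2 was 0.14 below it, so that the mean difference of -0.54 (SE 0.30) rested mainly on replicate 1, the library with the lower ESC marker sum (2038 RPKM, against 2924 RPKM in replicate 2). The part of those markers in the Acvr1b values was not tested. Acvr2b, the type II receptor, had 6.65 and 7.34 RPKM in the Naa10-KO libraries, against 6.66 and 6.79 RPKM in the WT libraries. The Acvr2b groups overlapped in range, with 1 Naa10-KO library on each side of WT (log2 difference 0.05, SE 0.11). The ratio of Acvr1b to Acvr2b was 0.623 and 1.08 in Naa10-KO, against 1.36 and 1.26 in WT.

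Among the Smads, Smad3 was higher and Smad7 lower in both Naa10-KO libraries, each by a small step, and Smad2 was on both sides of WT. Smad3, an effector that binds DNA directly, had 4.39 and 4.68 RPKM in the Naa10-KO libraries, against 3.59 and 3.66 RPKM in the WT libraries (1.25-fold, log2 difference 0.26, SE 0.11). Smad2, the effector that reaches DNA mainly through partners, had 8.71 and 7.61 RPKM in the Naa10-KO libraries, against 8.17 and 8.08 RPKM in the WT libraries. Its group means, 8.16 ± 0.777 RPKM in Naa10-KO and 8.12 ± 0.0605 RPKM in WT (SD, n = 2 each), were alike because replicate 1 was above and replicate 2 below WT. Smad7, the inhibitor that the pathway induces, had 14.0 and 13.3 RPKM in the Naa10-KO libraries, against 16.3 and 15.9 RPKM in the WT libraries, or 84.9% of the WT mean (log2 difference -0.22, SE 0.09). The ratio of Smad2 to Smad3 was 1.99 and 1.62 in Naa10-KO, against 2.27 and 2.21 in WT.

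**Figure D2:**
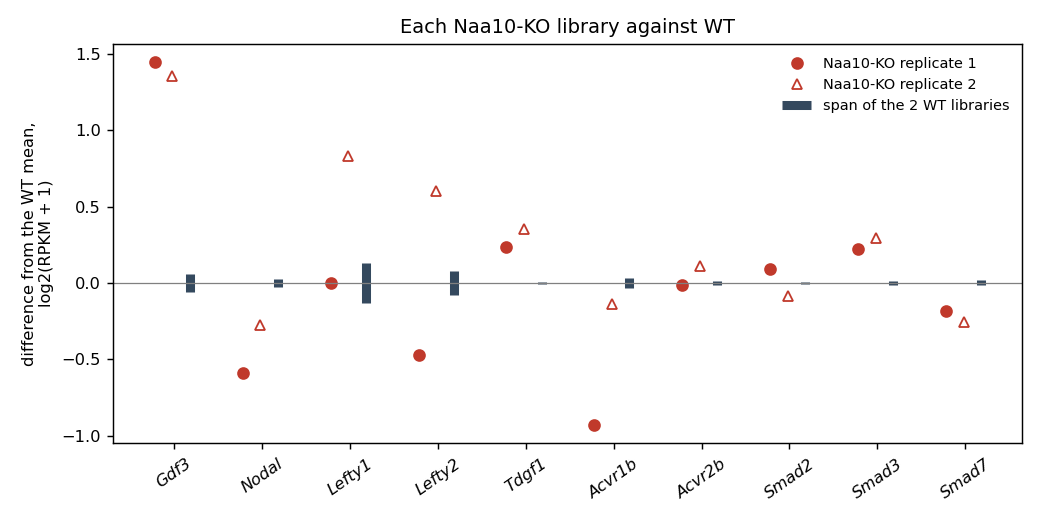
Difference of each Naa10-KO library (circle, replicate 1; triangle, replicate 2) from the WT mean on log2(RPKM + 1), beside the span of the WT libraries (dark bar, centred on 0). Gdf3 stands at 1.45 and 1.36, while Lefty2 stands at -0.47 and 0.60.

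Counted together, both Naa10-KO libraries were above both WT libraries for 3 of the 10 genes (Gdf3, Tdgf1 and Smad3) and below both for 3 (Nodal, Acvr1b and Smad7), while 4 overlapped. Over all rows tested, 24.4% were above in this way and 34.9% below, so the counts of the 10 genes are near those of the table at large. In replicate 1 alone, 4 of the 10 were above both WT libraries and 5 below (38.3% and 54.6% of all rows). In replicate 2 alone, 6 were above and 4 below (41.8% and 48.3% of all rows). For 3 genes, Lefty2, Acvr2b and Smad2, the Naa10-KO libraries were on opposite sides of both WT libraries. The median log2 difference of the 10 genes was 0.06, against -0.06 for all rows, and their median absolute difference was 0.28, against 0.22 for all rows. All 10 passed the filter on low values. Of these, 1, Gdf3, was past the limma threshold, adjusted p under 0.05 over all rows, which 0.764% of rows passed; since that value chose Gdf3, nothing is read from it. With the small RNA rows and every row at 0 in a library removed, 0 rows passed limma, although 2625 of 11662 had an unadjusted p under 0.05.

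The genes fell into wide tiers of level. In Naa10-KO the order by mean RPKM was Tdgf1, Gdf3, Nodal, Lefty2, Lefty1, Smad7, Smad2, Acvr2b, Acvr1b and Smad3, with means from 427 to 4.54 RPKM. There, Nodal and Lefty2, Lefty1 and Smad7, Acvr2b and Acvr1b, and Acvr1b and Smad3 were neighbours whose libraries overlapped, so their order is not beyond the spread. In WT the order was Tdgf1, Nodal, Lefty2, Gdf3, Smad7, Lefty1, Acvr1b, Smad2, Acvr2b and Smad3, with means from 347 to 3.63 RPKM, and only Lefty1 and Acvr1b overlapped. By mean, Gdf3 came next after Tdgf1 in Naa10-KO, and after Tdgf1, Nodal and Lefty2 in WT. In Naa10-KO, Lefty2 was below Gdf3 in replicate 1 (31.5 against 63.5 RPKM) and above it in replicate 2 (67.6 against 59.6 RPKM). The place of Gdf3 above Lefty2 is therefore not beyond the spread. Smad2 and Acvr1b, which are not neighbours in the Naa10-KO order, overlapped there too. The secreted ligands and Lefty2 were above the receptors and Smads in every library.

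Around these 10 genes, 68 further genes of the activin, Nodal and TGF-beta branch were listed by role. Of these, 62 had a row and 49 passed the filter on low values. None of the 49 passed the limma test over all genes (0 higher, 0 lower); 11 had an unadjusted p under 0.05, as did 2634 of the 11912 rows of the table. Both Naa10-KO libraries were above both WT libraries for 29 of the 49 and below for 7, beside 24.4% and 34.9% of all rows. The median log2 difference of the 49 was 0.26, at 0.29 in replicate 1 and 0.15 in replicate 2. Without either of the Naa10-KO libraries, between 2 and 8 genes of each list passed, in a fit that assumes the remaining one varies like the WT pair.

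The effectors and the receptors held genes whose Naa10-KO libraries lay on the same side of both WT libraries. Foxh1, the forkhead partner of Smad2 and Smad3, had 39.8 and 31.7 RPKM in the Naa10-KO libraries, against 18.6 and 18.2 RPKM in the WT libraries (log2 difference 0.91, SE 0.14, limma adjusted p = 0.101). This was the smallest adjusted p of the 49 genes, and the groups did not overlap. Crebbp, a histone acetyltransferase that Smads recruit, had a log2 difference of 0.41 (adjusted p = 0.169) and Zfyve9, which anchors Smad2 at the receptor, 0.25 (adjusted p = 0.373). In all, 0 of 7 effectors passed, beside 0.764% of all rows, and 6 were above both WT libraries, beside 24.4% of all rows. Of the 6 tested receptors, 0 passed. Tgfbr1, the type I receptor of TGF-beta, had 6.78 and 7.52 RPKM in Naa10-KO, against 9.44 and 9.42 RPKM in WT (log2 difference -0.36, adjusted p = 0.184), and Eng, a TGF-beta co-receptor, had 25.3 and 24.9 RPKM in Naa10-KO, against 20.8 and 19.1 RPKM in WT (log2 difference 0.32, adjusted p = 0.168).

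Several ligands, inhibitors and other genes of the lists were far higher in Naa10-KO replicate 1 than in replicate 2. Replicate 1 is the library with the highest fibroblast marker sum (802 RPKM, against 331 RPKM in replicate 2 and 332 and 341 RPKM in WT). Inhba, the activin A subunit, had 60.0 and 3.43 RPKM in the Naa10-KO libraries, against 2.87 and 3.46 RPKM in the WT libraries (log2 difference 1.98, SE 1.35, limma adjusted p = 0.439). Fst, which traps activin, had 21.8 and 5.38 RPKM in Naa10-KO, against 4.79 and 4.74 RPKM in WT (adjusted p = 0.404). Pmepa1, an inhibitor that the pathway induces, had 12.3 and 4.37 RPKM in Naa10-KO, against 4.56 and 4.02 RPKM in WT, and Tgfbr2, the type II receptor of TGF-beta, 4.37 and 1.16 RPKM in Naa10-KO, against 0.876 and 0.947 RPKM in WT. Ltbp1 and Ltbp3, which hold latent TGF-beta in the matrix, had log2 differences of 1.21 and 1.12 in replicate 1 and 0.02 and 0.09 in replicate 2. The part of the fibroblast markers in these values was not tested.

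Other genes of these lists lay outside the WT range on the same side in both Naa10-KO libraries, without passing the test. So did Fst, Tgfbr2, Ltbp1 and Ltbp3, though by little in replicate 2. T (brachyury), a mesoderm factor that Nodal induces, had 9.19 and 4.53 RPKM in the Naa10-KO libraries, against 1.18 and 1.04 RPKM in the WT libraries (log2 difference 1.83, SE 0.33, limma adjusted p = 0.118). Fgf8, a growth factor of the primitive streak, had 7.18 and 4.06 RPKM in Naa10-KO, against 2.32 and 1.90 RPKM in WT (adjusted p = 0.160). Tgif1, a repressor of Smad targets, had 153 and 191 RPKM in Naa10-KO, against 120 and 118 RPKM in WT (log2 difference 0.52, adjusted p = 0.150). Furin, a convertase that cleaves Nodal precursors, had 14.0 and 9.29 RPKM in Naa10-KO, against 7.50 and 6.83 RPKM in WT (adjusted p = 0.230), and Tgfb1, the founding TGF-beta ligand, had 24.4 and 14.0 RPKM in Naa10-KO, against 9.99 and 9.14 RPKM in WT (adjusted p = 0.201). Gdf15, a divergent family member, was the one tested ligand below WT, at 2.07 and 2.06 RPKM in Naa10-KO, against 3.99 and 3.39 RPKM in WT (adjusted p = 0.134). None of the 9 tested targets, 18 inhibitors, 7 processing genes or 4 ligands passed. The primed pluripotency marker sum, most of it Dnmt3b, was above WT in both Naa10-KO libraries as well, though Otx2 and Pou3f1 were not above in both. The part of these markers in the T and Fgf8 values was not tested. Targets of high Nodal signalling, such as Gsc and Mixl1, named after their values were seen, lay below 1 RPKM in all libraries.

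**Figure D3:**
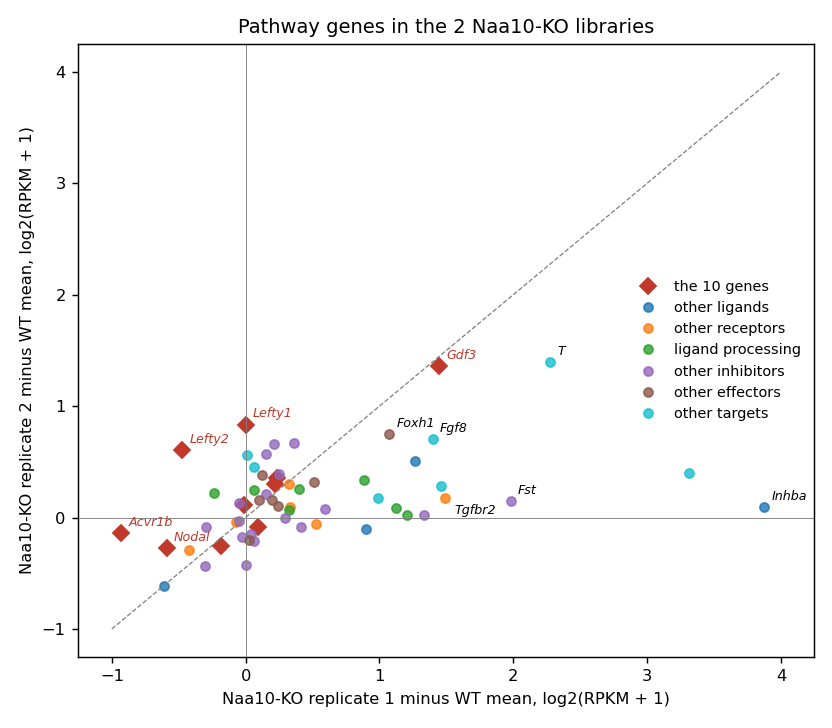
Difference of Naa10-KO replicate 1 (horizontal) and replicate 2 (vertical) from the WT mean on log2(RPKM + 1) for the 10 genes (diamonds) and the 49 tested genes of the lists (circles); the dashed line marks equal differences. Gdf3 lies near the line at 1.45 and 1.36, while Inhba lies far to the right, at 3.88 in replicate 1 against 0.09 in replicate 2.

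The rows whose pattern was nearest to that of Gdf3 were found by the Euclidean distance between row-centred log2 values over the 4 libraries, among 11661 other rows. They were Igfbp4 (distance 0.14), Junb (0.14), Trh (0.18), Lef1 (0.20) and Notum (0.21). Igfbp4, which binds insulin-like growth factors, had 14.6 and 14.3 RPKM in Naa10-KO, against 4.91 and 4.64 RPKM in WT. Junb, an AP-1 transcription factor, had 114 and 119 RPKM in Naa10-KO, against 41.8 and 42.0 RPKM in WT. Trh, the precursor of thyrotropin-releasing hormone, had 171 and 178 RPKM in Naa10-KO, against 70.8 and 72.1 RPKM in WT. The Naa10-KO libraries of these 3 genes were as close together as those of Gdf3. Lef1, a transcription factor of the Wnt pathway, had 40.3 and 31.5 RPKM in Naa10-KO, against 12.8 and 12.7 RPKM in WT. Notum, a secreted Wnt inhibitor, had 8.97 and 9.49 RPKM in Naa10-KO, against 2.48 and 3.49 RPKM in WT. These distances rest on 4 values and on the same comparison that selected Gdf3, and none of the 5 belongs to the Nodal pathway lists.

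Gdf3 lies on chromosome 6 beside other genes of pluripotent cells, in a stretch with Dppa3, Nanog and the glucose transporter gene Slc2a3. Dppa3, which protects maternal methylation marks in the zygote, is the next measured gene, with 61.2 and 140 RPKM in the Naa10-KO libraries, against 37.9 and 44.0 RPKM in the WT libraries (log2 difference 1.16, SE 0.43, limma adjusted p = 0.234). Both Naa10-KO libraries were above both WT libraries for Dppa3 as for Gdf3, but replicate 2 was the higher by far for Dppa3. Nanog, a core pluripotency factor, had 175 and 312 RPKM in Naa10-KO, against 258 and 253 RPKM in WT, so its Naa10-KO libraries were on opposite sides of WT (adjusted p = 0.814). Slc2a3 had 260 and 342 RPKM in Naa10-KO, against 237 and 241 RPKM in WT (adjusted p = 0.307). On the other side, Apobec1, Mfap5 and Rimklb were low, at 2.27 to 6.88 RPKM in Naa10-KO, against 3.02 to 9.12 RPKM in WT, with adjusted p from 0.435 to 0.970. None of the 6 neighbours passed the test.

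**Figure D4:**
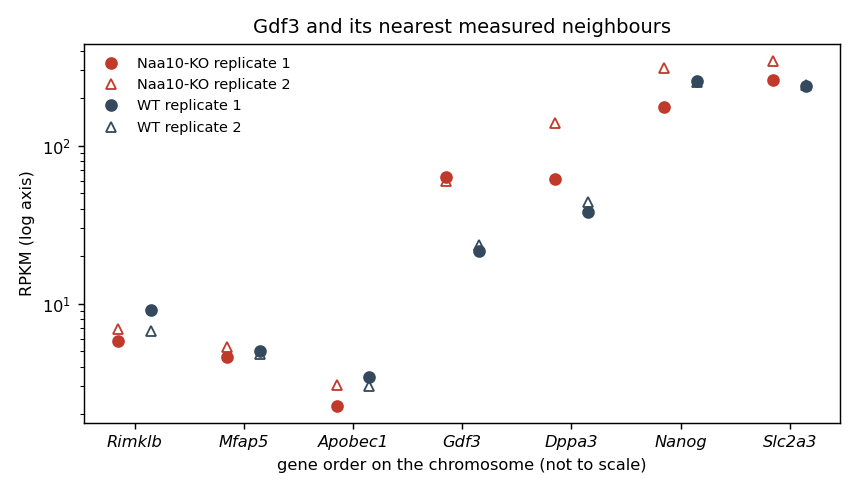
Level in RPKM (log axis) of Gdf3 and the 3 nearest measured genes on each side, in chromosome order and not to scale, in Naa10-KO (red, left) and WT (dark, right) libraries. Gdf3, Dppa3 and Slc2a3 are above WT in both Naa10-KO libraries, Nanog in 1 of them, and Apobec1, Mfap5 and Rimklb overlap between the genotypes.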

How the data were processed

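Expression was measured in 4 libraries (2 Naa10-KO, 2 WT). The authors deposited 1 table of RPKM per library, per the file headers; the submitters' processing notes name Cufflinks, bedtools and build mm9 without versions, with aligner and annotation not given in the sources used here. Rows were kept as deposited. limma 3.58.1 (R 4.3.3) was fitted on log2(RPKM + 1), with trend, over the 11912 rows that reached 1 RPKM in 2 or more libraries, two-sided, with Benjamini-Hochberg adjustment over all of them and a threshold of 0.05. Residual degrees of freedom were 2, with 1.94 added from the prior. Log2 differences on this scale understate low genes. The fit was tested on simulated data in which every library had the same spread, whereas here the Naa10-KO pair was the less alike. The labels do not tell whether the biological replicates are separate lines, so p-values cover only the spread among these 4 libraries.

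RPKM hide the depth. Depth was estimated as the total that brings low values of genes with a single GENCODE M21 transcript over 500 nt nearest to whole fragments, assuming fragments of 200 nt. Values within 0.1 of a whole number made up 36.7% to 47.2% of those used. Ratios to WT replicate 1 were 1.45, 1.68 and 1.02 for Naa10-KO replicates 1 and 2 and WT replicate 2; short rows of at most 75 nt gave 1.46, 1.68 and 1.02. Estimated fragments and counting errors cover counting error only.

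The members and lists were chosen with earlier results of these data known. Besides the members and Naa10, genes were named by rule: list genes past the threshold, the 3 largest differences of each list among rows with no 0, the 5 rows nearest to Gdf3, and 3 neighbours on each side of it in the RefSeq gene table (GRCm38.p6, used for order only). Gsc and Mixl1 were named outside the rule, and 1 gene that the rule names is not reported here. Promoters came from RefSeq. Genes without a row (Gdf1, Mstn, Inha, Inhbe, Acvr1c and Ldlrad4) were not analysed here. Alternatives were another pseudocount, no filter, rows at 0 left out, median scaling, no trend, a replicate block and each library left out. Python 3.11.15, pandas 2.3.3 and Biopython 1.88 handled the tables.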

Additional observations from a re-analysis of the deposited data

How the results depend on the processing

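Of the 10 genes, 6 (Gdf3, Nodal, Tdgf1, Acvr1b, Smad3 and Smad7) kept the direction of their log2 difference under all 10 alternatives run. Gdf3 ranged from 1.34 to 1.46, Nodal from -0.59 to -0.28 and Acvr1b from -0.93 to -0.14. The groups of these 6 genes did not overlap, so leaving out a library or changing the pseudocount could not reverse them. Changes to the filter, the rows kept, the trend or the block leave the difference itself as it is. Only median scaling could have reversed these 6, so their kept direction says little about robustness. Lefty1, Lefty2, Smad2 and Acvr2b each changed sign when 1 library was left out, Lefty2 between -0.47 without Naa10-KO replicate 2 and 0.60 without replicate 1. Over the whole table, 91 rows passed (26 higher, 65 lower). That count was 40 with no filter on low values and 0 with rows at 0 and small RNA rows left out, where the cause was not tested. It was 44 with the replicate number as a block and 133 with the numbers of the Naa10-KO libraries crossed, an alternative chosen after seeing that same-numbered libraries deviated with a correlation of -0.21; nothing in the labels pairs the libraries. The block changed no call of the lists. With 1 library left out the count ran from 12 to 7081, and from 0 to 4 for other ligands, 5 for receptors, 6 for processing genes, 8 for inhibitors, 4 for effectors and 7 for targets; the calls came without a Naa10-KO library, when the lone one is assumed to vary like the WT pair. Otherwise 0 list genes passed in the settings run for the lists. Left-out libraries moved Mfap5 between -0.083 and 0.10 and Nanog between -0.55 and 0.29 (log2). Relative to WT, the median of all rows was -0.08 (log2) for Naa10-KO replicate 1 and -0.02 for replicate 2, and scaling it away changed no direction of the 10 genes.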
